A study of Rattus norvegicus with 12 samples.

Results

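Potassium channel genes, taken as all genes whose symbol starts with Kcn, were examined in the lungs of rats exposed to cigarette smoke (CS) and lipopolysaccharide (LPS). Of 88 such genes with a probe on the array, 58 were detected, out of 11146 detected genes with a symbol in all. Detection meant a signal flagged by the scanner as well above background in each of the 3 rats of some group. A gene is represented by its brightest probe, apart from Kcnma1, for which each probe is described. The 4 groups of 3 male Sprague-Dawley rats were 8 to 12 weeks of age. The Control rats received neither exposure. The CS+LPS rats, a model of chronic obstructive pulmonary disease (COPD), breathed smoke until day 30 and had LPS instilled into the trachea on days 5 and 19. The CS+LPS+NaHS rats had the same exposure and were given NaHS, a salt that releases hydrogen sulfide (H2S), and the CS+LPS+PPG rats were given PPG, which blocks CTH, an enzyme that forms H2S in the body. Total RNA of the left upper lobe, a mixture of all cell types of the lung, was hybridized to 1 array per rat, so fewer cells of a type and less RNA per cell cannot be told apart.

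Potassium channels let potassium leave the cell, which moves the membrane voltage away from the threshold of excitation. In airway and vascular smooth muscle this closes calcium channels and favours relaxation, and in epithelium it maintains the driving force for chloride and fluid secretion. The BK channel opens with calcium and depolarization, and its pore is formed by Kcnma1. The ATP-sensitive channel (KATP), built in blood vessels from Kcnj8 and the regulatory subunit Abcc9, is a known target of H2S in vascular muscle. Voltage-gated (Kv) channels repolarize the membrane, inward rectifiers (Kir) and K2P channels set the resting voltage, and auxiliary subunits tune the Kv pores.

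The arrays lay on 2 slides. Slide 2 held the CS+LPS arrays and Control replicate 3, and slide 1 held all others, so comparisons of CS+LPS with NaHS or PPG run across slides, with Control replicate 3 as the single link. That array also stood apart. Its correlation with the other arrays reached at most 0.957, against at least 0.975 among the other 11. Its summed signal of 4 detected ciliated-cell markers was 25020, against 6066 to 9086 elsewhere, and that of 5 secretory airway markers was 637300, against 248800 to 378400. Its T cell and macrophage sums (2570 and 4720) were the lowest of the 12. Values without this array are given where it decides a result, and the part of airway tissue in these results was not tested. Alveolar type 2 markers, which define lung tissue, were detected for each of 6 genes with a probe.

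More potassium channel genes were lower than higher in the lungs of CS+LPS rats. Values are log2 normalized signals, and a gene was called when its group means differed at least 2-fold with an unadjusted p under 0.05 in limma. The study set the same thresholds but tested otherwise, and the methods' t-test called 3 members in place of 7 between the CS+LPS and Control groups. A Benjamini-Hochberg adjusted p under 0.05, over all 21239 detected probes, is given apart. Between the CS+LPS and Control groups 7 of the 58 genes were called (12.1%, against 4.56% of all probes), and all were lower: Kcns2, Kcnj15, Kcnb2, Kcnd3, Kcnma1, Kcnj14 and Kcnmb4. Lower calls made up 2.91% of all probes. The median log2 difference was -0.33 over the members and -0.04 over all probes, with 36 members lower and 22 higher. An unadjusted p under 0.05 was reached by 28 members and by 25.2% of all probes. Kcnj15 and Kcnc4 passed the adjusted p (3.45% of members, 2.02% of all probes). With quantile normalization the medians were -0.17 over the members and 0.04 over all probes, 6 members were called lower and 2 higher, and among all probes the share of higher calls went from 36.2% to 61.6%. Without Control replicate 3, Kcnj15, Kcnma1 and Kcnmb4 were called, and without CS+LPS replicate 3 the 4 members called were Kcnb2, Kcnd3, Kcnj15 and Kcnma1. The share of all probes called is not given for these fits or for quantile normalization, so they do not show whether the members still exceeded it. With slide as a block 21 members were called, beside 22.7% of all probes, in a fit that rests on Control replicate 3, the lone Control array of slide 2.

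**Figure D1:**
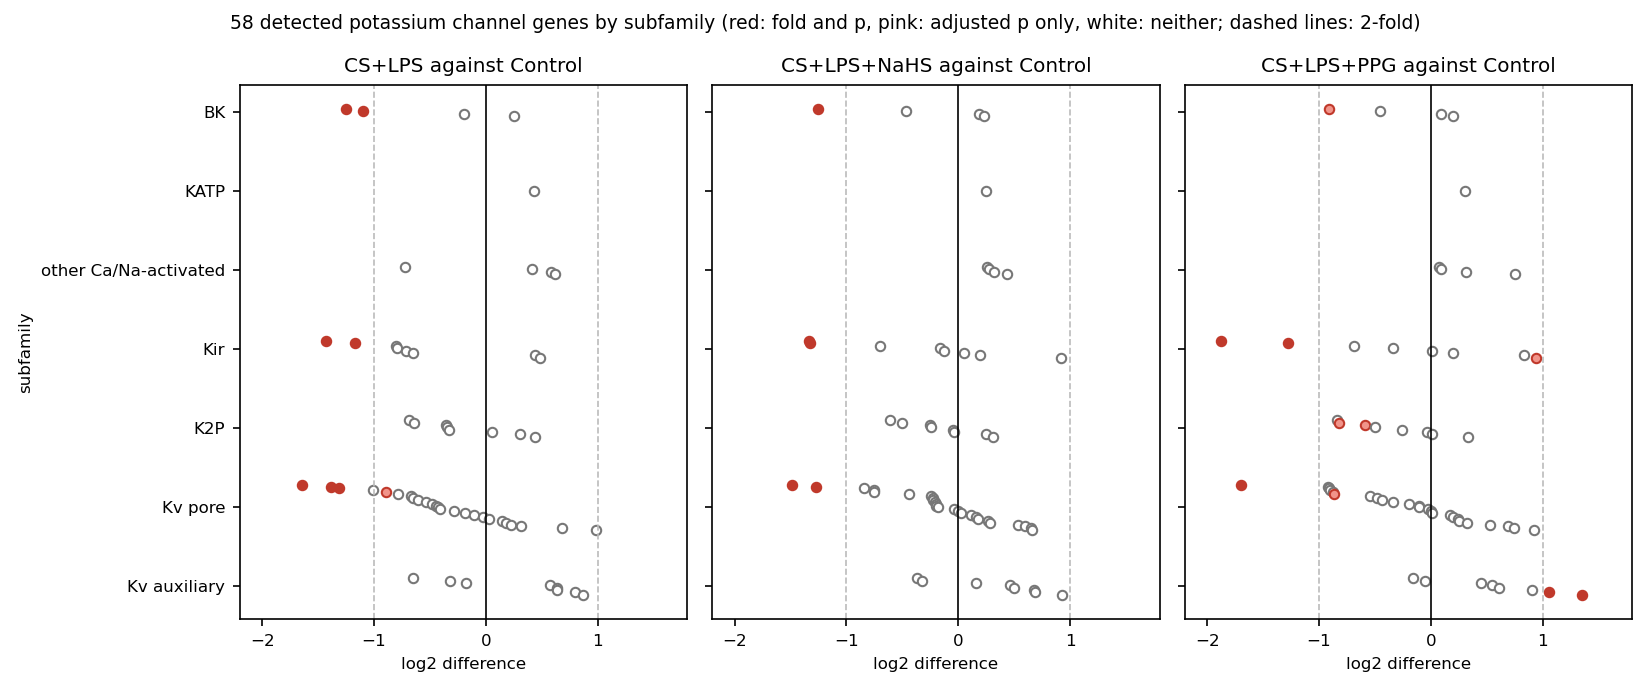
Log2 difference from the Control group of each of the 58 detected potassium channel genes (1 point per gene, x axis), by subfamily (y axis), for each of the 3 exposed groups; red points were called by fold and p, pink points passed the adjusted p alone. All 7 red points of the CS+LPS panel lie left of the 2-fold line, while the 2 red points to the right in the PPG panel are Kv auxiliary subunits.

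Kcnma1, the pore of the BK channel, fell with CS+LPS and stood at the Control level in both treated groups. On its most intense probe, which matches chromosome 15 from 950227 to 950286 in the positions given with the deposited data (no genome build is named there), the log2 normalized signal was 8.91, 9.01 and 9.61 in the Control rats and 7.28, 7.98 and 8.52 in the CS+LPS rats. With NaHS it was 9.56, 9.37 and 9.31, and with PPG 9.55, 9.02 and 9.56. Every CS+LPS array thus lay below every array of the other groups. Control replicate 3, on the same slide as the CS+LPS arrays, was the highest of all 12 after scaling. Before scaling its signal of 429.3 was the lowest in the Control group (437.5 and 509.5 in the others). Its 75th percentile of 856, used for the scaling, was the lowest of all arrays, so this rank rests on the scaling. The CS+LPS mean of 7.93 ± 0.62 (SD, n = 3) compared with 9.18 ± 0.38 in the Control group. The difference of -1.25 (standard error 0.30, unadjusted p = 0.00156) was called at 2.38-fold, with a limma adjusted p of 0.0576. It was -1.69 within slide 2, against the lone Control array there, and with slide as a block (adjusted p = 0.00738), -1.04 without Control replicate 3 and -0.93, short of 2-fold, without CS+LPS replicate 1. Kcnma1 is a gene that the study had named from these same arrays, so its values are not independent of that choice.

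**Figure D2:**
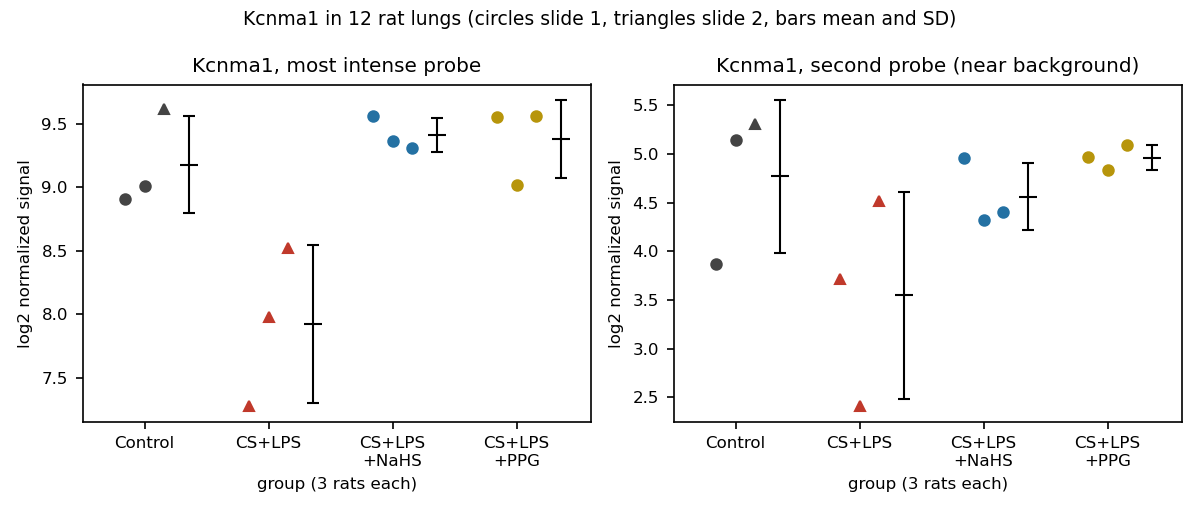
Log2 normalized signal (y axis) of the most intense and the second probe of Kcnma1 in each rat, by group (x axis); circles are arrays of slide 1, triangles those of slide 2, and bars give mean and SD. On the most intense probe the 3 CS+LPS arrays, at 7.28 to 8.52, lie below the other 9.

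Compared with CS+LPS rats, Kcnma1 was 2.80-fold higher with NaHS (log2 difference 1.49, standard error 0.30, unadjusted p = 0.000441) and 2.74-fold higher with PPG (1.45, standard error 0.30, unadjusted p = 0.000524). The limma adjusted p was 0.0613 and 0.0742. With slide as a block, which rests on Control replicate 3, the differences were 2.14 and 2.11 (adjusted p = 0.0155 and 0.017). Against Control the treated groups differed by 0.23 (NaHS) and 0.20 (PPG), and against each other by 0.03 (standard error 0.30), none of which was called. The second probe was dim. It was well above background on 0 arrays of the Control and CS+LPS groups, 1 array with NaHS and 3 with PPG, and its PPG mean was at least 2.10-fold above the CS+LPS group (adjusted p = 0.327). It counted as detected through the PPG group alone, so this excess lends nothing to the result of the most intense probe. The remaining probe was not well above background on any array. BK channels are abundant in smooth muscle. Of 11 detected smooth muscle markers, limma called 0 between the CS+LPS and Control groups, with 1 at an unadjusted p under 0.05, and 0 between either treated group and the CS+LPS group, also with 0 at an unadjusted p under 0.05. Against Control, 9 of the 11 lay lower and 2 higher with CS+LPS, and 10 lower and 1 higher with NaHS. With PPG all 11 lay lower, 4 of them at an unadjusted p under 0.05 in limma, and Lmod1 was called. Among all probes, 25.2% (CS+LPS) and 29.3% (PPG) had a limma unadjusted p under 0.05 against Control. The shares of all probes called were 4.56% and 4.38%. Their summed signal ran from 82810 to 120700 in Control and from 71590 to 130000 in CS+LPS. It was 74930 to 89690 with NaHS and 71490 to 87410 with PPG. The part of smooth muscle in the Kcnma1 values was not tested.

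Among the beta subunits of the BK channel, Kcnmb4, a subunit best known from neurons, was lower in the CS+LPS and CS+LPS+NaHS groups. Its log2 signals of 11.12, 10.69 and 10.33 in Control rats all exceeded those of the CS+LPS rats, at 10.03, 9.54 and 9.28, a difference of -1.10 (standard error 0.30, adjusted p = 0.0816). This was -0.72 and no longer called with slide as a block or within slide 2, and -0.89 and -0.93, also not called, without Control replicate 1 or CS+LPS replicate 3. With NaHS the signals were 9.55, 9.38 and 9.43, or -1.26 from Control (standard error 0.30, adjusted p = 0.138) and -1.45 within slide 1. The PPG values of 9.69, 10.18 and 10.90 overlapped with Control. Thus, unlike Kcnma1, the NaHS group stayed 0.16 below the CS+LPS mean. Kcnmb2, a subunit that inactivates the channel, passed the adjusted p in the PPG group, with 9.86, 9.48 and 10.17 against 10.58, 11.10 and 10.57 in Control (-0.91, standard error 0.21, adjusted p = 0.0416). Its other detected probe differed by -0.58 (adjusted p = 0.118) in the same comparison, and the mean of both probes by -0.75. Kcnmb1, the subunit of smooth muscle, differed from Control by 0.25, 0.19 and 0.09 in the CS+LPS, NaHS and PPG groups, each within its standard error of 0.29. Kcnmb3 was not detected.

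The KATP pore gene Kcnj8 was not called in any of the 6 comparisons. Its log2 signals were 11.19, 10.54 and 10.86 in Control, 11.39, 11.07 and 11.42 with CS+LPS, 11.13, 11.02 and 11.18 with NaHS, and 11.34, 11.10 and 11.08 with PPG, so that the groups overlapped. The largest of its differences was 0.43 between the CS+LPS and Control groups (standard error 0.17, adjusted p = 0.161). Between the NaHS and CS+LPS groups it was -0.18 (standard error 0.17). Abcc9, the regulatory subunit that pairs with Kcnj8, differed from Control by -0.48, -0.12 and -0.54 in the CS+LPS, NaHS and PPG groups and was not called. The alternative pore Kcnj11 and regulatory subunit Abcc8 were not detected.

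Genes that work with these channels were also read, from a list of 24 (KATP and BK subunits outside the Kcn name, calcium channel subunits, calcium release and entry proteins, and the cyclic GMP pathway), of which 15 were detected. By fold and p, 0 of the 15 were called in any comparison. Against Control, 4, 3 and 5 had a limma unadjusted p under 0.05 in the CS+LPS, NaHS and PPG groups. Among all probes these shares were 25.2%, 17.1% and 29.3%. Itpr1, the calcium release channel of the endoplasmic reticulum, passed the adjusted p in the PPG group (6.67% of the 15, against 4.64% of all probes). Its log2 signal there was 12.84, 12.83 and 12.84 against 13.80, 13.80 and 13.56 in Control (-0.89, standard error 0.16, adjusted p = 0.0242). In the CS+LPS group it was 13.31, 13.07 and 12.99 (-0.60, adjusted p = 0.0758).

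Of the inward rectifiers, Kcnj15 and Kcnj14 were lower than Control in all 3 exposed groups, in comparisons that share the Control arrays. Kcnj15, a rectifier of epithelial cells, had log2 signals of 6.70, 6.44 and 7.08 in Control and 5.91, 4.71 and 5.31 with CS+LPS, without overlap. The difference was -1.43 (standard error 0.30, adjusted p = 0.0428), and -1.77 within slide 2. With NaHS its signals were 5.17, 5.55 and 5.52 (-1.32, adjusted p = 0.124), and with PPG 5.78, 5.03 and 5.57 (-1.28, adjusted p = 0.0433). Within slide 1 these were -1.15 and -1.11. By fold and p, Kcnj15 was called against Control in each exposed group when any single array was left out, with values from -1.73 to -1.07, but with normexp correction it was -0.85, -0.83 and -0.71 in the CS+LPS, NaHS and PPG groups and not called. The adjusted p stayed under 0.05 in 2 (CS+LPS) and 3 (PPG) of the 12 fits that left out an array, and was 0.0837 and 0.0816 without Control replicate 3.

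Kcnj14, another inward rectifier, fell from 7.88, 7.56 and 9.29 in Control to 6.23, 6.43 and 6.45 with PPG, a difference of -1.87 (standard error 0.42, adjusted p = 0.0415) that was -1.35 without Control replicate 3 (adjusted p = 0.0522) and within slide 1. For CS+LPS (7.74, 6.93 and 6.56) and NaHS (6.61, 7.34 and 6.78) the calls rested on that array. The differences of -1.17 and -1.33 became -0.65 and -0.81 without it, and neither was then called. The CS+LPS difference was likewise not called without CS+LPS replicate 2 (-1.10) or replicate 3 (-0.91). Kcnj5, a subunit of the G protein-gated channel of the atrium, passed the adjusted p in the other direction. It rose from 7.73, 8.09 and 8.53 in Control to 9.27, 9.03 and 8.86 with PPG (0.94, standard error 0.22, adjusted p = 0.0434), and the NaHS signals were 9.08, 8.87 and 9.16 (0.92, adjusted p = 0.136). Heart muscle markers, 7 detected genes, varied widely between arrays of the same group, with summed signals of 7343, 6543 and 96130 in Control, 55800, 14110 and 13110 with CS+LPS, 10500, 58350 and 22400 with NaHS, and 75070, 43530 and 69330 with PPG. Their part in the Kcnj5 difference was not tested.

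**Figure D3:**
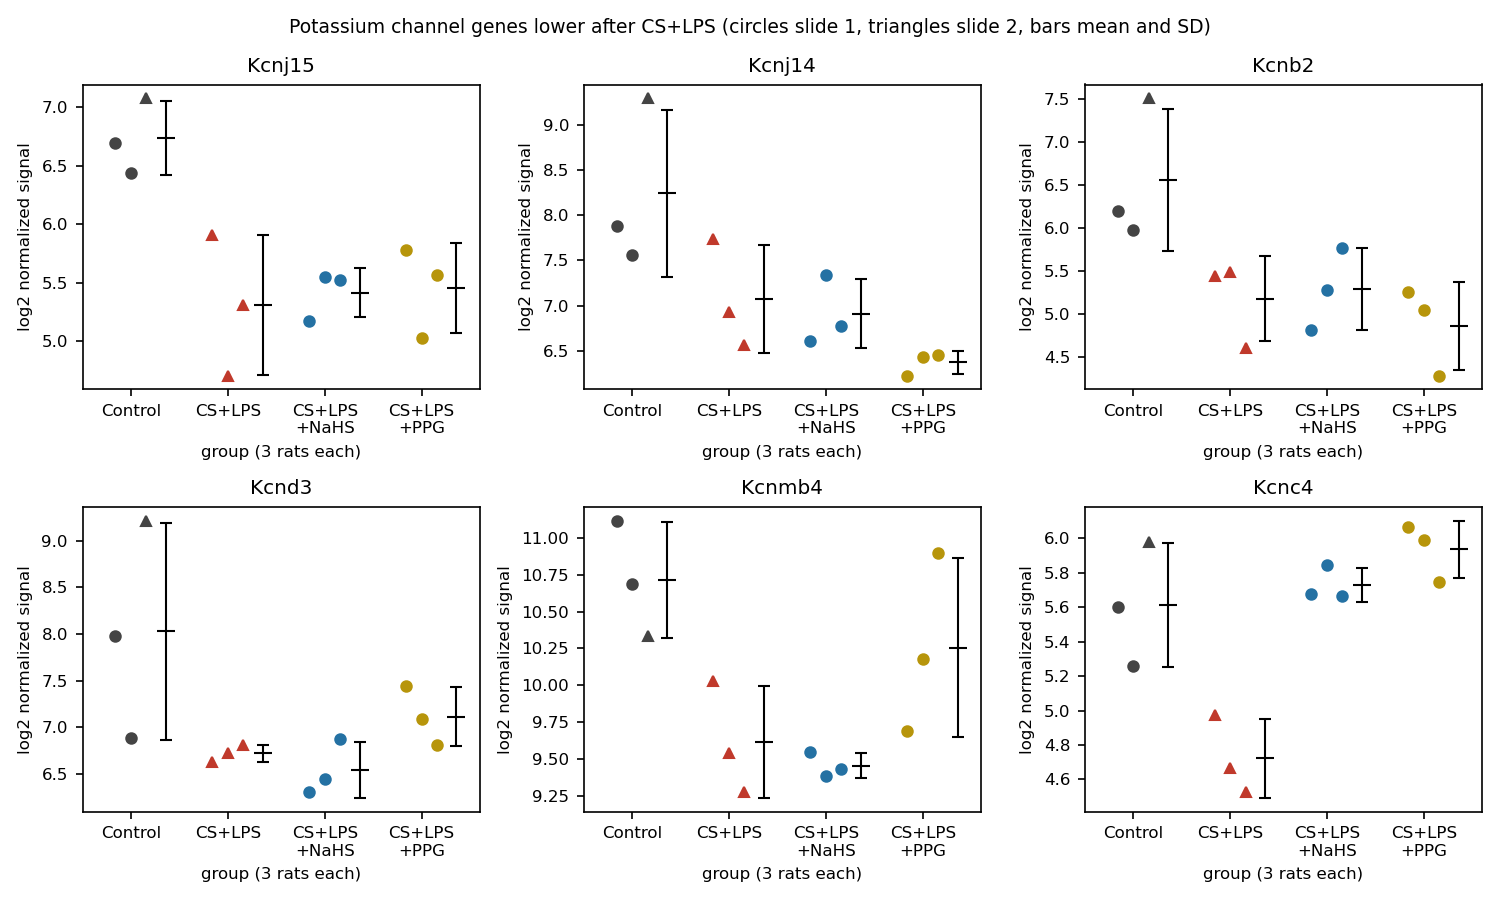
Log2 normalized signal (y axis, a scale of its own in each panel) of 6 potassium channel genes in each rat, by group (x axis); circles are arrays of slide 1, triangles those of slide 2, and bars give mean and SD. The Control array of slide 2 is the highest of the 3 Control arrays for each gene but Kcnmb4, and Kcnc4 is the gene whose CS+LPS arrays alone lie low.

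Of 25 detected Kv pore genes, 3 were called lower in the CS+LPS group, 2 in the NaHS group and 1 in the PPG group against Control, where lower calls made up 2.91%, 1.37% and 2.06% of all probes, and 0 were called higher. Kcnb2, a delayed rectifier, had log2 signals of 6.20, 5.98 and 7.51 in Control and 5.45, 5.49 and 4.61 with CS+LPS (-1.38, standard error 0.43, adjusted p = 0.1). The NaHS signals were 4.82, 5.28 and 5.77 (-1.27, adjusted p = 0.205) and the PPG signals 5.26, 5.05 and 4.29 (-1.70, adjusted p = 0.0498). No exposed array reached the lowest Control array. Without Control replicate 3 the differences were -0.91, -0.80 and -1.23, of which only the last was called, and the NaHS difference was not called without CS+LPS+NaHS replicate 1 either (-1.04, unadjusted p = 0.0546 in limma). With normexp correction Kcnb2 was not called against Control in any exposed group, and with the methods' t-test it was called with PPG alone. Kcnd3, which carries the fast transient current, ranged from 6.88 to 9.22 in Control and from 6.63 to 6.81 with CS+LPS. Its differences of -1.31 with CS+LPS and -1.49 with NaHS (adjusted p = 0.123 and 0.177) were -0.71 and -0.89 without Control replicate 3, and were then not called. Kcns2, a silent subunit that modifies other Kv pores, was well above background on 2 Control and 1 CS+LPS arrays, and its groups overlapped (-1.64, standard error 0.73, adjusted p = 0.193, and -0.95 without Control replicate 3), and it was not called in 10 of the 12 fits that left out an array.

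Kcnc4, a fast Kv pore, was lowest in the CS+LPS group, as Kcnma1 was, and passed the adjusted p in each comparison with the CS+LPS group. Its log2 signals were 5.60, 5.26 and 5.98 in Control, 4.98, 4.67 and 4.53 with CS+LPS, 5.67, 5.84 and 5.67 with NaHS, and 6.07, 5.99 and 5.75 with PPG. As for Kcnma1, the CS+LPS arrays lay below all others. The difference between the CS+LPS and Control groups was -0.89 (standard error 0.19, adjusted p = 0.045), or -1.26 within slide 2, where Control replicate 3 is the lone Control array. Compared with CS+LPS, Kcnc4 was 1.01 higher with NaHS (standard error 0.19, adjusted p = 0.0495) and 1.21 higher with PPG (standard error 0.19, adjusted p = 0.0216). The CS+LPS difference from Control was -0.71 without Control replicate 3 (adjusted p = 0.0736), and its adjusted p stayed under 0.05 in only 2 of the 12 fits that left out an array. For the NaHS and PPG differences from CS+LPS it stayed under 0.05 in 2 and 8 of the 12 fits. Under quantile normalization the PPG difference alone passed the adjusted p. The NaHS difference was 0.91 to 0.98, under 2-fold, without CS+LPS replicate 2, CS+LPS replicate 3 or CS+LPS+NaHS replicate 2. With slide as a block, which rests on Control replicate 3, the NaHS and PPG differences from CS+LPS were 1.55 and 1.76 (adjusted p = 0.00629 and 0.00392). That array, at 5.98, was the highest Control array, which widens both differences in this fit. The probe was dim, and normexp background correction brought the 3 differences to -0.58, 0.29 and 0.50, none with an adjusted p under 0.05.

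The stretches before the start of 4 of these genes are shown because Kcnma1 and Kcnc4 were low in the CS+LPS group alone and Kcnj15 and Kcnj14 in all exposed groups. They are the 250 bases before the annotated start in RefSeq on assembly GRCr8, in the direction of the gene, for Kcnma1 chr15:351675-351924 (plus strand), Kcnc4 chr2:197788434-197788683 (minus strand), Kcnj15 chr11:48070700-48070949 (plus strand) and Kcnj14 chr1:105437259-105437508 (minus strand). Capitals mark a match, on either strand, to the GC box GGGCGG, the CCAAT box CCAAT or the TATA box TATAAA, and overlapping matches run together.
Kcnma1: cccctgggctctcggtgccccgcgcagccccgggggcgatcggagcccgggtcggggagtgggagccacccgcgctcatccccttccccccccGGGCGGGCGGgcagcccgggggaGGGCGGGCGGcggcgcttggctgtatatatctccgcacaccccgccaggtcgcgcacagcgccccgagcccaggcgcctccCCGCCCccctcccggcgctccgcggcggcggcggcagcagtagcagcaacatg
Kcnc4: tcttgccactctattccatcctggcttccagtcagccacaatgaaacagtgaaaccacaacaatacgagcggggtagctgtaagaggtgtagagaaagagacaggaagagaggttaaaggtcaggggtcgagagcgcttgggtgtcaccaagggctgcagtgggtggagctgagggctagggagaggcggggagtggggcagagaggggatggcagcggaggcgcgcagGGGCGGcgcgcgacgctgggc
Kcnj15: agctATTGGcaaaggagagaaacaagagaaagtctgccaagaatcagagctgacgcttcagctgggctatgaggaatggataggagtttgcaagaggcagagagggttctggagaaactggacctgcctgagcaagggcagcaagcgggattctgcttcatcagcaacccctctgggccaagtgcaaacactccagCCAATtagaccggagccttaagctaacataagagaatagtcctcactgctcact
Kcnj14: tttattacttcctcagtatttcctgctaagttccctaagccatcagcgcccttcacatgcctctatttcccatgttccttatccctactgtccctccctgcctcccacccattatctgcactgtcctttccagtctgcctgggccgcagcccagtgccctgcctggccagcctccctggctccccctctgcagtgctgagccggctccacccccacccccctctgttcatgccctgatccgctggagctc
The GC box was found 5 times before Kcnma1 and 1 time before Kcnc4, the CCAAT box 2 times before Kcnj15, and none of the 3 motifs before Kcnj14. Of 33469 windows of this length in the table, 30.5% held the GC box, 34.0% the CCAAT box and 12.9% the TATA box. The dinucleotide CG occurred 33 and 13 times before Kcnma1 and Kcnc4 and 3 and 4 times before Kcnj15 and Kcnj14, against a median of 5 over all windows. Of the 58 detected members, 38 had a window in the table, and 21 of them held a GC box in at least 1 window. These matches describe the letters alone.

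The NaHS group had 5 members called against Control (8.62%, against 2.67% of all probes), Kcnj15, Kcnd3, Kcnj14, Kcnmb4 and Kcnb2, all lower, where lower calls made up 1.37% of all probes. By adjusted p (0.0989% of all probes), limma called 0 members, with 15 at an unadjusted p under 0.05 (17.1% of all probes), and the methods' t-test called 0 after adjustment, with 9. Without Control replicate 3, Kcnj15 and Kcnmb4 were called lower and Kcnj5 higher. In the PPG group 5 members were called (8.62%, against 4.38% of all probes), Kcnj14, Kcnb2 and Kcnj15 lower (lower calls were 2.06% of all probes) and Kcne3 and Kcne5 higher (higher calls were 2.32%), or 3 lower and 4 higher with quantile normalization. The adjusted p was passed by 8 members (13.8%, against 4.64% of all probes), 7 of them lower (2.03% of all probes), and an unadjusted p under 0.05 was reached by 23 (29.3% of all probes). With only the 2 groups in the fit 0 members passed the adjusted p, with 20 at an unadjusted p under 0.05, and the methods' t-test gave 0 and 19. Leaving out each array in turn left 0 to 9 members past it, and each of the 8 stayed past it in at most 3 of the 12 fits. Without Control replicate 3 the adjusted p was passed by 2, Kcnj5 and Kcnmb2, and without Control replicate 2 by 9. The shares of all probes in these alternatives are not given, for NaHS or for PPG.

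Auxiliary subunits of Kv channels gave the 2 members called higher with PPG. Kcne3, a subunit of epithelial potassium channels, had log2 signals of 9.50, 9.55 and 9.54 with PPG against 8.63, 8.97 and 7.81 in Control (1.06, standard error 0.27, adjusted p = 0.053), and the CS+LPS and NaHS signals lay between 8.71 and 9.31. Without Control replicate 3 the difference was 0.73 and was not called. Kcne5 was not well above background on any Control array. It counted as detected through exposed groups alone, the groups in which it was high, so its calls against Control were favoured by the filter. Its 2 probes were at least 2.55-fold and 2.84-fold higher with PPG (adjusted p = 0.104 and 0.0968), and the first of these was not called without Control replicate 3 or CS+LPS+PPG replicate 1 (log2 differences 1.20 and 1.07). With NaHS the brighter probe was 0.68 above Control with overlapping groups and was not called (adjusted p = 0.469). The weaker probe was at least 2.95-fold higher there (adjusted p = 0.203), with 7.15 in CS+LPS+NaHS replicate 2 and 5.31 and 5.28 in the others. Kcnab2 and Kcne4 had the 2 smallest p-values over the 4 groups in this subfamily, without being called. Kcnab2, a cytoplasmic beta subunit, was 0.93 above Control with NaHS and 0.91 with PPG (adjusted p = 0.141 and 0.0513), and Kcne4 was 0.65 below Control with CS+LPS (adjusted p = 0.0658).

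No K2P gene and none of the other calcium- or sodium-activated channel genes was called by fold and p in limma. Between the CS+LPS and Control groups, 4 of 8 K2P genes and 2 of 4 of the other kind had an unadjusted p under 0.05, against 25.2% of all probes. Kcnk1 and Kcnk5, 2 of 8 detected K2P genes and both epithelial leak channels, passed the adjusted p with PPG. Kcnk1 was 12.77, 12.82 and 12.75 in Control and 12.15, 12.13 and 12.29 with PPG (-0.59, standard error 0.13, adjusted p = 0.0412). Its NaHS signals of 12.12, 12.16 and 12.23 lay near those with PPG (-0.61 from Control, adjusted p = 0.121). It varied little within these groups and more with CS+LPS, at 12.62, 12.18 and 12.55. Kcnk5 was 9.30, 9.49 and 8.87 with PPG against 9.82, 9.94 and 10.35 (-0.82, standard error 0.20, adjusted p = 0.0444). Without Control replicate 3 the differences of Kcnk1 and Kcnk5 were -0.60 and -0.66 (adjusted p = 0.0505 and 0.0783), and each stayed past the adjusted p in 2 of the 12 fits that left out an array. Kcnn3 and Kcnn4, with the smallest p-values over the groups among calcium- or sodium-activated channels outside the BK family, lay above Control with CS+LPS by 0.42 and 0.58 (adjusted p = 0.0777 and 0.129). The intermediate-conductance channel Kcnn4, known from T cells and macrophages, was 0.75 above Control with PPG (adjusted p = 0.0599). Macrophage markers, 4 detected genes, had summed signals of 4720 to 10300 in Control, 15360 to 22390 with CS+LPS, 15690 to 19340 with NaHS (where Kcnn4 was 0.32 above Control) and 14260 to 18060 with PPG. T cell markers summed to 2570 to 9595 in Control, 6607 to 11890 in CS+LPS rats, 10540 to 11000 in those given PPG and 7733 to 9431 in those given NaHS. The part of these cells in the Kcnn4 values was not tested. Kcnh4, the Kv pore gene with the highest difference between the CS+LPS and Control groups, was 0.99 above Control (standard error 0.23, adjusted p = 0.0569), just short of 2-fold.

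Relative to the CS+LPS group, 3 members were called with NaHS (5.17%, against 1.70% of all probes) and 2 with PPG (3.45%, against 2.05% of all probes), all higher, in comparisons that share the CS+LPS arrays and cross the slides. Higher calls made up 1.49% and 1.78% of all probes. By adjusted p, Kcnc4 was the member called in each (0.593% and 0.523% of all probes). Kcnma1 and Kcnc4 were called with both treatments. Kcnc2, a relative of Kcnc4, was called with NaHS, at 5.29, 4.92 and 4.84 against 4.03, 3.10 and 4.71 (1.07, standard error 0.32, adjusted p = 0.223), and its PPG values of 4.86, 4.62 and 4.73 overlapped with the CS+LPS group. The probe counted as detected through the NaHS group alone (1 Control, 2 CS+LPS, 3 NaHS and 2 PPG arrays well above background), the group in which it was high, so this call was favoured by the filter. It was not called without CS+LPS replicate 2 (0.65) or CS+LPS+NaHS replicate 1 (0.93). With slide as a block 21 and 16 members were called, beside 19.9% and 19.4% of all probes. The NaHS and PPG groups, which lie on 1 slide, differed in 1 member (1.72%, against 0.523% of all probes, 0.32% lower). Kcnj13, a rectifier of transporting epithelia, was 7.98, 7.46 and 7.83 with NaHS and 8.56, 8.63 and 9.11 with PPG, without overlap (-1.01, standard error 0.22, unadjusted p = 0.000796, adjusted p = 0.563). Without CS+LPS+NaHS replicate 2 or CS+LPS+PPG replicate 3 it was -0.86 or -0.83 and not called. By adjusted p (0% of all probes), limma called 0 members between these groups, with 4 at an unadjusted p under 0.05 (8.74% of all probes), and the methods' t-test called 0, with 8.

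**Figure D4:**
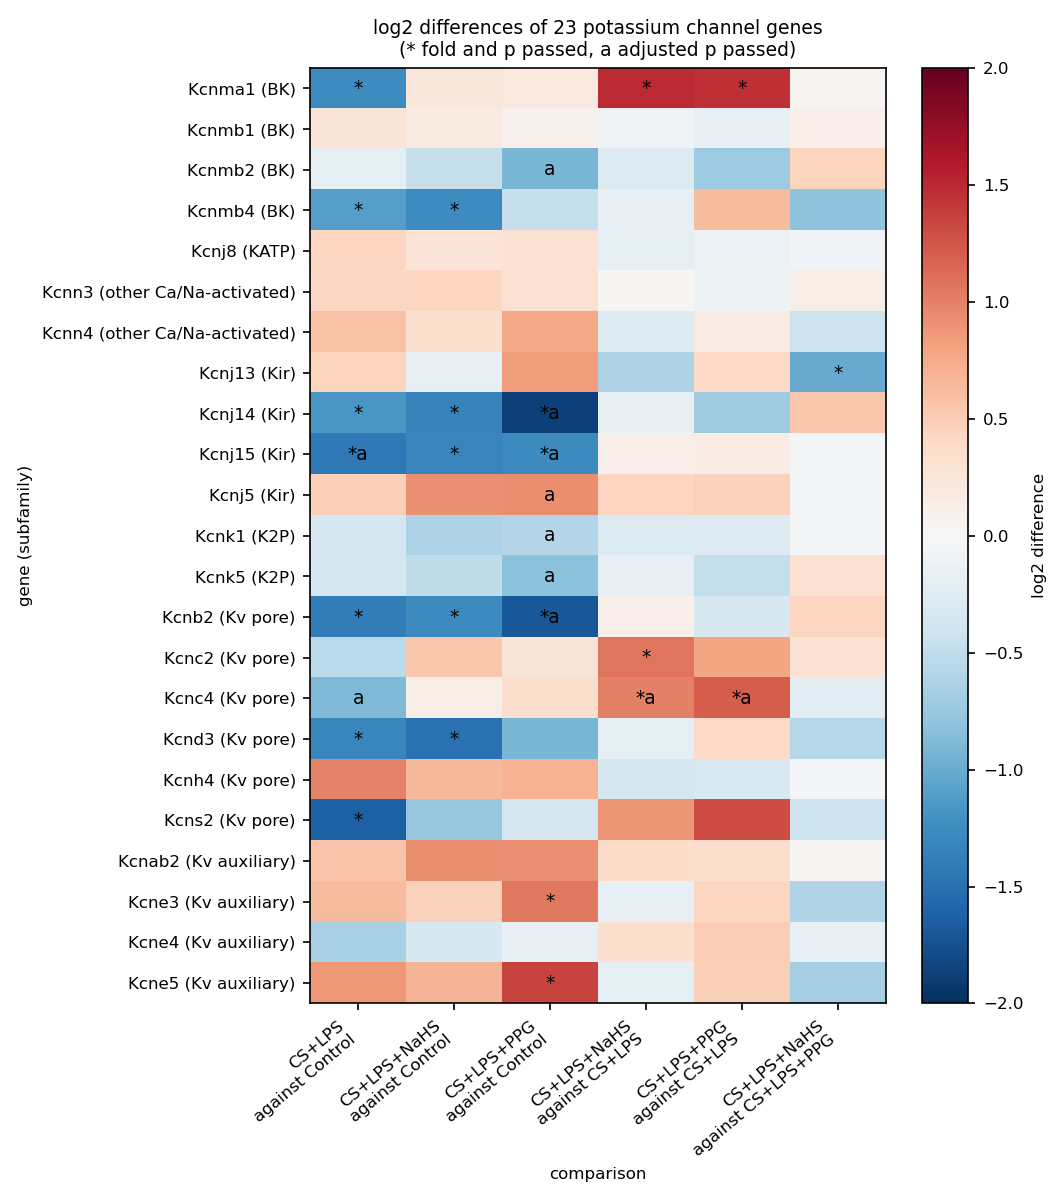
Log2 difference (colour scale, red higher and blue lower in the group named first) of 23 potassium channel genes (rows, grouped by subfamily) in the 6 comparisons (columns); * marks calls by fold and p, a marks adjusted p under 0.05. Kcnj14, Kcnj15 and Kcnb2 are blue in all 3 columns against Control, and Kcnma1 and Kcnc4 are blue against Control with CS+LPS and red in both treated groups against CS+LPS.

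**Figure D5:**
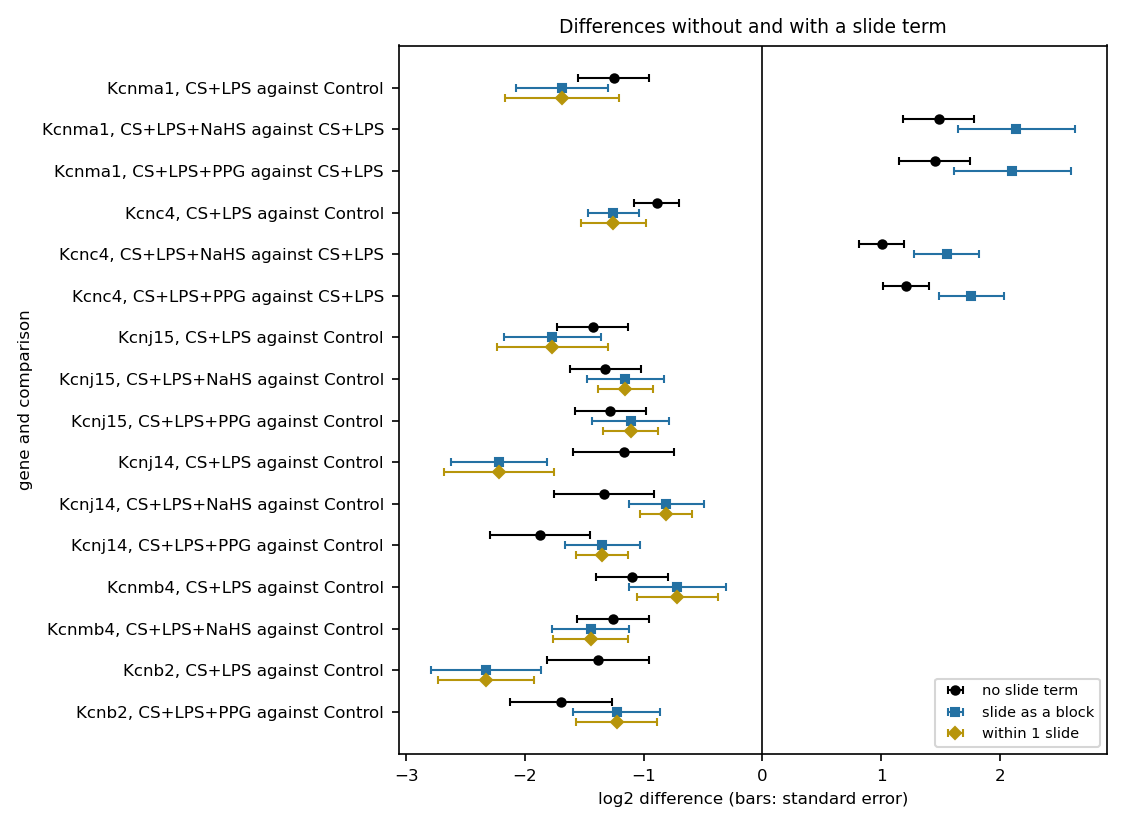
Log2 differences with standard errors (x axis) of 6 potassium channel genes in comparisons where they passed (y axis). The call of Kcnb2 with NaHS against Control is not drawn. Fits are without a slide term (circles), with slide as a block (squares) and on the arrays of 1 slide alone (diamonds, where a slide holds both groups). Every value drawn keeps its sign, and those of Kcnma1 and Kcnc4 lie farther from 0 with the slide term.

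The remaining 34 detected members were not called in any comparison on their most intense probe. The dimmer probe of Kcnh3, a Kv pore, passed the adjusted p between the CS+LPS and Control groups (-0.99, standard error 0.19, adjusted p = 0.0365), where its most intense probe differed by -0.60 (adjusted p = 0.153). Their log2 differences ran from -1.01 (Kcna2) to 0.80 (Kcnab1) between the CS+LPS and Control groups, from -0.84 to 0.68 between the NaHS and Control groups, and from -0.91 to 0.92 between the PPG and Control groups. Of the 34, 12 had a limma unadjusted p under 0.05 in the first of these comparisons, 3 in the next and 8 in the last. Among all probes the shares were 25.2%, 17.1% and 29.3%. They comprised 18 Kv pore genes, 6 K2P genes, 4 Kir genes, 4 auxiliary subunits, and Kcnn1 and Kcnt1. A further 30 genes had a probe but were not detected, among them the classical rectifier Kcnj2, the Kv pores Kcna1, Kcna4 and Kcna5, and Kcnn2.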

How the data were processed

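RNA from the lungs of 12 rats (4 groups of 3, taken from the sample labels) was hybridized to Agilent arrays with 1 dye. The authors deposited the scanner output of Agilent Feature Extraction (version 10.7 in the submitters' processing notes, 10.7.3.1 in the file headers), whose processed signal is an intensity, linear and already corrected for background. In 3 of these files the intensities had been rounded to 3 significant digits. They also deposited 5 lists of changed probes with fold changes, p-values and normalized signals, from which probe positions alone were taken. In these, 120 columns of values for single samples were not used here.

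Processed signals were turned into log2 values. Spots marked as outliers were left out, repeated spots were averaged per probe, and each array was shifted so that its 75th percentile, over all probes for rat transcripts, equalled the mean of the 12 percentiles. These 75th percentiles were 856 to 2222 in signal units, and 66.0% to 75.5% of probes were well above background on an array. The number of arrays limits the precision. A probe printed more than once had to be well above background in at least 50% of its spots. Symbols were found by RefSeq accession in the GRCr8 gene table (17514 of 30367 probes matched). In R 4.3.3, with the packages data.table (version 1.17.8) and limma (version 3.58.1), a linear model with moderated variances covered the 21239 detected probes on all 12 arrays, giving 6 comparisons. The fit was tested on simulated data with known changes. Where neither group was above background no fold is given. Where 1 group was on no array, the fold is a lower bound, from the mean of the other group over the higher, on each array, of the probe's signal and the lowest signal of any probe well above background. The summed signal of a marker list adds the linear normalized signals of its detected genes.

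The members, the lists and the tests were chosen with earlier results of these data known. Named genes are each BK and KATP gene detected, each detected member that passed in at least 1 comparison, the 2 with the smallest p over all groups in each other subfamily, and partner genes that passed, with Abcc8 and Abcc9. Of these, 1 gene that this rule names is not reported here, though the counts include it. The alternatives tried were quantile normalization, the percentile taken over probes detected on every array, normexp correction (offset 50, on the median signal of each spot), outlier spots kept, no filter or a filter on all 12 arrays, slide or replicate number as a block, single slides, a fit of only the 2 groups in question, the test named as the methods' t-test, the mean of a gene's detected probes, and leaving out each array in turn. Each array is a different rat, so p-values measure the spread between rats and between arrays together.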

Additional observations from a re-analysis of the deposited data

How the results depend on the processing

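Members called numbered 7 (CS+LPS), 5 (NaHS) and 5 (PPG) relative to Control, 3 (NaHS) and 2 (PPG) relative to CS+LPS, and 1 between NaHS and PPG. In the same order, 4.56%, 2.67%, 4.38%, 1.7%, 2.05% and 0.523% of all probes were called. For most alternatives below only member counts are given, without the share of all probes. Such a count does not show whether members were called more often than other probes. Normexp background correction, which compresses dim probes, gave 3, 3, 1, 1, 1 and 0. Slide as a block gave 21 for CS+LPS and 3 for NaHS against Control, and relative to CS+LPS 21 (NaHS) and 16 (PPG). Within slide 2 the count for CS+LPS against Control was 22, and within slide 1 it was 3 for NaHS against Control. The methods' t-test gave 3 and 2 for CS+LPS and NaHS against Control. With no filter, 9 were called for NaHS against Control and 4 for PPG against CS+LPS. A filter on all 12 arrays, which left 45 members, gave 3 for PPG against Control and 1 each for NaHS and PPG against CS+LPS. Quantile normalization gave 1 each for the latter. The percentile over probes detected on every array gave 5 for NaHS against CS+LPS and 0 for NaHS against PPG. With normexp the median of all probes for CS+LPS against Control was -0.14, and that of the members -0.36. The causes were not tested.

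Leaving out each array in turn gave 3 to 9 for CS+LPS, 3 to 7 for NaHS and 5 to 10 for PPG against Control (10 without Control replicate 2), relative to CS+LPS 2 to 4 (NaHS) and 2 to 3 (PPG), and 0 to 2 for NaHS against PPG (2 without CS+LPS+PPG replicate 1, 0 without replicate 3). Kcnma1 ranged from -1.55 to -0.93 for CS+LPS against Control, where the value without CS+LPS replicate 1 was not called, from 1.16 to 1.78 for NaHS and from 1.13 to 1.75 for PPG against CS+LPS. Its 3 differences were called in each of the other alternatives run. Of 612 values of the 26 other called differences under the alternatives, 443 stayed on their side of the threshold, 169 did not pass and 0 reversed sign. Left out, Control replicate 3 ended 13 of the 26.

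The replicate numbers did not pair the samples: deviations of the 18 same-numbered pairs from their group means correlated at -0.308 to 0.139, and 2 pairs exceeded 0.1. With the replicate block the counts of members called stayed at 7, 5, 5, 3, 2 and 1, and Kcnma1 at -1.25, 1.49 and 1.45 (limma adjusted p = 0.0834, 0.0898 and 0.0953), while 0 members passed the adjusted p in any comparison.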
